A study of Mus musculus with 2 samples.

Results

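The MHC class II genes Cd74, H2-Aa, H2-Ab1 and H2-Eb1, their transactivator Ciita and the Langerhans cell gene Cd207 were examined in imiquimod-treated mouse skin. The members were the 6 of 19465 measured genes that carried these symbols, and each symbol matched a single gene (ENSMUSG00000024610, ENSMUSG00000036594, ENSMUSG00000073421, ENSMUSG00000060586, ENSMUSG00000022504 and ENSMUSG00000034783, in that order). The assay was probe-based spatial transcriptomics of formalin-fixed, paraffin-embedded back skin (Visium CytAssist), in which each capture spot covers a small piece of tissue that can hold several cells and counts transcripts as unique molecular identifiers (UMIs). There were 2 sections of 10 µm on capture areas with sides of 11 mm. One came from an S1pr2 fl/fl mouse and one from an S1pr2 fl/fl K14-Cre mouse, so both carried the floxed S1pr2 alleles and only the latter carried the Cre transgene. Both mice were 8 weeks old, were depilated, and received 62.5 mg of 5% imiquimod (IMQ) cream daily for 7 days. K14-Cre expresses the recombinase from the keratin 14 promoter, which is active in basal keratinocytes, whose descendants inherit the recombined allele. Dermal cells are not the target of K14-Cre. With 1 section per genotype no test between genotypes was possible, no p-value is given, and genotype, animal, section and array cannot be told apart. Spots of 1 section are not replicates, and all intervals are 95% intervals that cover counting error only.

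MHC class II molecules display peptides from endocytosed proteins to CD4+ T cells. H2-Aa encodes the alpha chain and H2-Ab1 the beta chain of I-A, H2-Eb1 encodes the beta chain of I-E, and Cd74 encodes the invariant chain that occupies the groove until the peptide is loaded. Ciita is the transactivator without which these genes are hardly transcribed: it does not bind DNA itself but docks on proteins that sit on the X and Y boxes of class II promoters. Langerhans cells are the dendritic cells of the epidermis, and Cd207 encodes langerin, the lectin that forms their Birbeck granules. Macrophages, dendritic cells and B cells of the dermis also carry class II, and interferon gamma can induce it on keratinocytes.

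The promoters of H2-Aa, the member that differed most between the sections, and of H2-Eb1 are shown because they carry the same pair of class II boxes, and that of Cd207 because it lacks them. H2-Aa (chromosome 17, 34282744 to 34287823), H2-Ab1 (chromosome 17, 34263227 to 34269418) and H2-Eb1 (chromosome 17, 34305867 to 34316674) are neighbours, whereas Ciita lies on chromosome 16 (10480014 to 10531064) and Cd207 on chromosome 6 (83671207 to 83677857). The lines below give the 150 bases before the start of transcription, 5′ to 3′ on the strand of the gene, from RefSeq (GRCm38.p6). Capitals mark motif matches.
H2-Aa, chr17:34287824-34287973, minus strand: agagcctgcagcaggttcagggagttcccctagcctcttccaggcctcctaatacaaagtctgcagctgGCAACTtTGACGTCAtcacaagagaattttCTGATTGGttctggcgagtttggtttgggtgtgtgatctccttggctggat
H2-Eb1, chr17:34305717-34305866, plus strand: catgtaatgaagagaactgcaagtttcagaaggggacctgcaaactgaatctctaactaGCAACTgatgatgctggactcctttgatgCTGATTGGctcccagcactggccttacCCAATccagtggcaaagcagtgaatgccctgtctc
Cd207, chr6:83677858-83678007, minus strand: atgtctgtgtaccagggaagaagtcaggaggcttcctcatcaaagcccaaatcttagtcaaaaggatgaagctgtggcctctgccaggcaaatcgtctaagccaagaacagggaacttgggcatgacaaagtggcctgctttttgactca

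In H2-Aa the start of the X box (GCAACT) began 81 bases before the start of transcription and the Y box (CTGATTGG) 51 bases before it, so that their first bases lay 30 bases apart. A cyclic AMP response element (TGACGTCA, the same on both strands) lay 1 base after the X box start. In H2-Eb1 the same letters began 91 and 62 bases before the start, 29 bases apart, and CCAAT, the reverse complement of ATTGG, followed downstream. Motifs were searched on both strands in 32851 promoters of 27025 gene symbols, each from 250 bases before to 50 after the start. GCAACT was in 10.9% of them, CTGATTGG in 4.10%, ATTGG, which the Y box contains, in 37.4%, TGACGTCA in 1.79%, and the core of interferon-stimulated response elements in 3.44%. GCAACT followed on the same strand by ATTGG at 15 to 45 bases was found in 105 promoters (0.320%), which included H2-Aa, H2-Eb1 and the related H2-Eb2. The pair was not found in the promoters of H2-DMa, H2-DMb1, H2-DMb2, H2-Oa and H2-Ob, other genes of the class II pathway. None of these letters was in the Cd207 promoter. The motifs were chosen with the sequences in view, and a match is a description of the letters only. H2-Ab1 and Ciita were not among the promoters used.

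Over tissue there were 1282 spots with 5315351 UMIs in fl/fl (median 3542.5 per spot) and 981 with 2845826 in K14-Cre (median 2319). The sections shared 357 spot barcodes, which are positions of the array and not shared cells. Levels are given as CPM, that is UMIs per 1000000 UMIs of the same spots, and since each gene is read by its own probes, levels are compared between spots and sections but not between genes. The sections differed in tissue makeup: the keratinocyte list (15 genes) took 53651 CPM in fl/fl and 18284 in K14-Cre, and the muscle list (7 genes) 17754 and 56745. Chemosensory receptor genes, which skin should hardly express, served as background, and their 1226 genes took 2715 and 7330 CPM. The log2 ratio of K14-Cre over fl/fl had a median of 0.40 over 18125 genes, so the typical gene lay higher in K14-Cre on this scale. Scaling with the TMM factors of edgeR lowers every such whole-section, regional or layer ratio by 0.37. S1pr2 itself had 154 UMIs in fl/fl (29.0 CPM, 24.6 to 33.9) and 54 in K14-Cre (19.0, 14.3 to 24.8), and in keratinocyte-rich spots 49 (20.4 CPM, 15.1 to 27.0) and 8 (15.4 CPM, 6.67 to 30.4), where the intervals overlap, so a loss of the targeted gene is not shown there. The 8 UMIs were also within background, as a receptor gene had a mean of 4.14 and at most 55 UMIs in those K14-Cre spots. These counts therefore cannot tell loss from no loss.

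Class II transcripts were spread across both sections. The sum of Cd74, H2-Aa, H2-Ab1 and H2-Eb1, called the class II sum here, had at least 1 UMI in 78.7% of the fl/fl spots and 71.5% of the K14-Cre spots, and in 69.5% and 58.9% when spots of at least 1000 UMIs were thinned to 1000. The median spot held 4 class II UMIs in fl/fl and 2 in K14-Cre, and the richest 55 and 95. The richest 10% of spots held 36.5% of the class II UMIs in fl/fl and 46.5% in K14-Cre, against 28.7% and 28.5% of all UMIs for the richest 10% by total. The K14-Cre counts per spot were also lower, and sparser counts alone raise such a share, so the sections are not compared on it. Of the 10 spots with the most class II UMIs, 7 in fl/fl were keratinocyte-rich and 6 in K14-Cre were rich in dermal markers. These 10 spots held 5.03% and 11.7% of the class II UMIs of their sections. Of all spots, 467 of 1282 in fl/fl were keratinocyte-rich and 201 of 981 in K14-Cre were rich in dermal markers. Ranking by count favours deep spots: the 10 held 122356 and 111806 UMIs of all genes, where the median spot held 3542.5 and 2319. The macrophage list (9 genes, none at 0) stood at 1520 CPM in the 10 fl/fl spots against 2038 in that section, and at 4839 in the 10 K14-Cre spots against 2479. In the same order, the conventional dendritic cell list stood at 384 against 239 and 411 against 275 CPM. The leukocyte list stood at 801 against 774 and 1538 against 676. The T cell list had 114 against 73.6 and 35.8 against 95.2, and the B cell list 8.17 against 20.9 and 35.8 against 47.4.

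**Figure D1:**
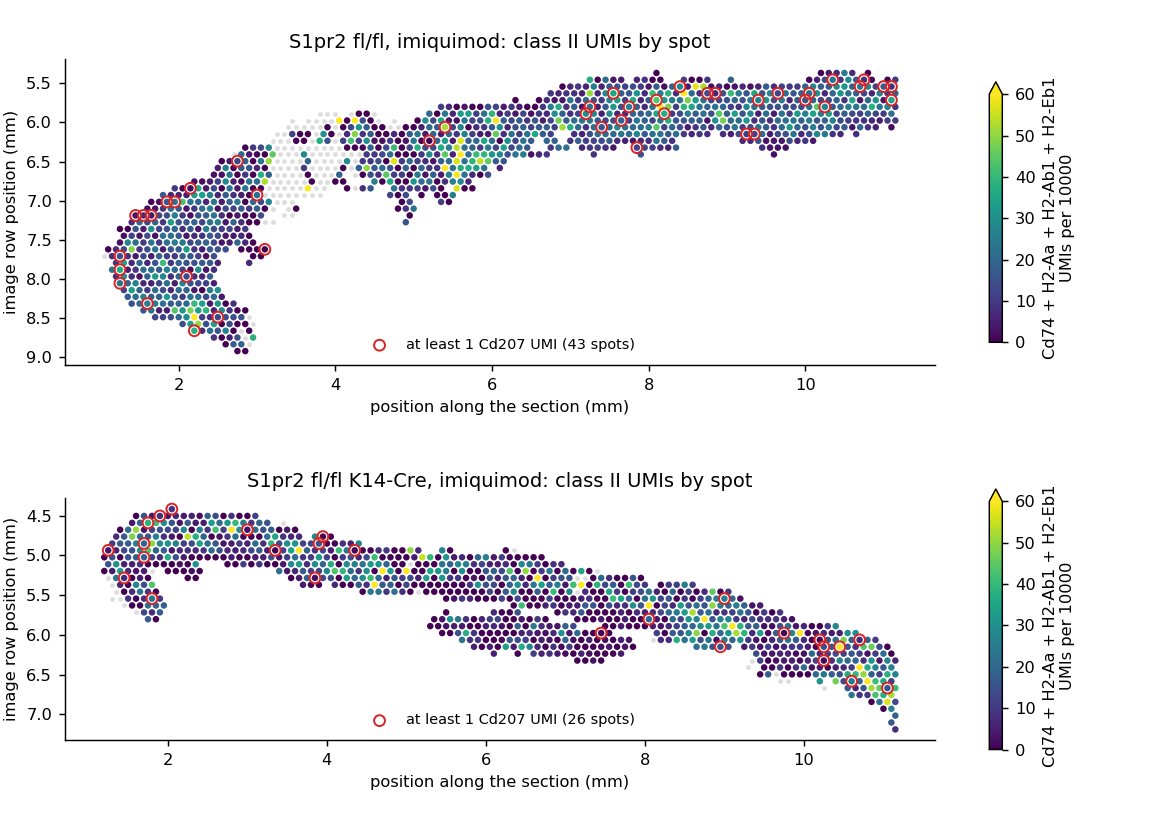
Spots of the 2 sections at their image positions in mm, with the skin surface up; colour gives class II UMIs (Cd74, H2-Aa, H2-Ab1 and H2-Eb1) per 10000 UMIs of the spot, grey marks spots under 500 UMIs, and red rings mark the 43 fl/fl and 26 K14-Cre spots with a Cd207 UMI. Class II UMIs appear through the depth of both sections, and many rings lie near the upper edge; a stretch of the fl/fl section near 3 to 4 mm is shallow.

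Across whole sections the 6 members had similar or lower shares of the UMIs in K14-Cre, and H2-Aa differed most. H2-Aa had 871 UMIs in fl/fl (164 CPM) and 277 in K14-Cre (97.3 CPM), a log2 ratio of -0.75 (-0.95 to -0.55). Cd74 had 5245 and 2589 UMIs (987 and 910 CPM, log2 -0.12, -0.19 to -0.05). H2-Eb1 had 1235 and 551 (232 and 194 CPM, -0.26, -0.41 to -0.12). The intervals of these 3 genes did not reach 0. For H2-Ab1, with 1012 and 509 UMIs (190 and 179 CPM), the log2 ratio of -0.09 had an interval that spanned 0 (-0.25 to 0.06). Ciita had 185 and 103 UMIs (34.8 and 36.2 CPM, 0.06, -0.31 to 0.41), and Cd207 64 and 34 (12.0 and 11.9 CPM, -0.01, -0.66 to 0.61), so neither differed detectably at this depth. None of the 6 was 2-fold apart, where 28.4% of the 18125 genes with at least 20 UMIs were 2-fold higher in K14-Cre and 4.50% 2-fold lower. The members' median was -0.11, below the 0.40 of all genes. Background was also higher in K14-Cre (receptor genes 2715 and 7330 CPM), and its part in the median of all genes was not tested. The class II sum was 1573 CPM in fl/fl and 1380 in K14-Cre (log2 -0.19, -0.24 to -0.13). Fewer class II cells and less class II RNA per cell cannot be told apart in such sums.

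Spots were then divided by which of 5 marker lists, none with a member, stood highest over its mean. This gave 467 keratinocyte-rich spots in fl/fl (median layer 3 from the surface) and 183 in K14-Cre (median layer 2), and 313 and 201 spots rich in dermal fibroblast markers (median layers 8 and 5). A spot often mixes tissues: the 2 best lists lay within 1.5-fold of each other in 372 fl/fl and 300 K14-Cre spots. The same region also differed in makeup between the sections. Keratinocyte-rich spots held 87340 CPM of the keratinocyte list in fl/fl and 60740 in K14-Cre. Dermal-marker-rich spots held 29289 and 40181 CPM of the dermal fibroblast list and 8303 and 23027 of the muscle list. The part of this in the class II values was not tested.

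In keratinocyte-rich spots H2-Aa showed the widest gap of the members. It had 298 UMIs in fl/fl (124 CPM), in 147 of 467 spots, and 17 in K14-Cre (32.8 CPM), in 10 of 183 spots, a log2 ratio of -1.92 (-2.72 to -1.22). After thinning, 9.26% of the fl/fl and 2.52% of the K14-Cre keratinocyte-rich spots held an H2-Aa UMI. H2-Aa was the 1 member of 6 past 2-fold lower, where 12.8% of the 11910 genes tested were lower and 20.7% higher. Its chain partner H2-Ab1, with 406 and 70 UMIs (169 and 135 CPM), had a log2 ratio of -0.32 (-0.71 to 0.04), and H2-Eb1, with 507 and 76 (211 and 147 CPM), one of -0.53 (-0.89 to -0.18). Cd74, with 2254 and 452 UMIs (940 and 873 CPM), differed by -0.11. The intervals of Ciita (65 and 21 UMIs, 27.1 and 40.5 CPM, 0.58, -0.20 to 1.31) and Cd207 (47 and 13 UMIs, 19.6 and 25.1 CPM, 0.36, -0.65 to 1.27) spanned 0. The class II sum was 1445 CPM in fl/fl and 1188 in K14-Cre (-0.28, -0.41 to -0.16), beside a macrophage list of 853 and 651 CPM and a conventional dendritic cell list (11 genes) of 230 and 278 CPM in the same spots. Fscn1 alone gave 149 and 168 CPM of that dendritic cell list. The leukocyte list (4 genes) stood at 490 and 259 CPM there and the receptor genes at 2268 and 9805, and the part of either in these values was not tested.

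In dermal-marker-rich spots H2-Aa was again lower in K14-Cre, whereas the other class II chains were not. H2-Aa had 263 and 100 UMIs (225 and 163 CPM, log2 -0.46, -0.81 to -0.12). Cd74 had 1423 and 926 (1216 and 1513 CPM, 0.32, 0.19 to 0.44), H2-Ab1 265 and 171 (226 and 279 CPM, 0.30, 0.02 to 0.59) and H2-Eb1 324 and 211 (277 and 345 CPM, 0.32, 0.06 to 0.57). These 3 positive values turned to -0.056, -0.068 and -0.055 with TMM scaling. The TMM factors came from whole sections, and before that scaling the median over the 11747 genes tested in these spots was 0.02. The direction of the 3 values thus depended on whether a whole-section factor was applied to these spots. The class II sum was 1944 and 2300 CPM (0.24, 0.15 to 0.34), -0.13 with TMM scaling and 0.12 without the 10 richest spots of each section. The macrophage list (9 of 9 genes measured, none at 0) stood at 3874 CPM in fl/fl and 3857 in K14-Cre in these spots, the conventional dendritic cell list at 285 and 444, with Itgax at 0 in K14-Cre, and the B cell list (5 genes) at 23.9 and 70.2 on 28 and 43 UMIs, while the receptor genes stood at 3747 and 8862 CPM with a mean of 3.58 and 4.43 UMIs per gene. Fscn1 alone gave 116 and 168 CPM of the dendritic cell list. The part of macrophages, dendritic cells and B cells in the class II values was not tested. None of the 5 members with at least 20 UMIs was 2-fold apart, where 12.4% of 11747 genes were higher and 9.94% lower. In fat- and muscle-marker-rich spots the class II sum was lower in K14-Cre (log2 -0.65, -0.82 to -0.48, and -0.55, -0.70 to -0.40), and H2-Aa differed by -1.41 (-1.92 to -0.91) and -0.55 (-0.99 to -0.11). The muscle list stood at 22437 CPM in fl/fl and 64351 in K14-Cre in the fat-marker-rich spots and at 84472 and 143680 in the muscle-marker-rich spots, while the keratinocyte list went from 22385 to 3636 CPM and from 16122 to 2161 CPM.

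**Figure D2:**
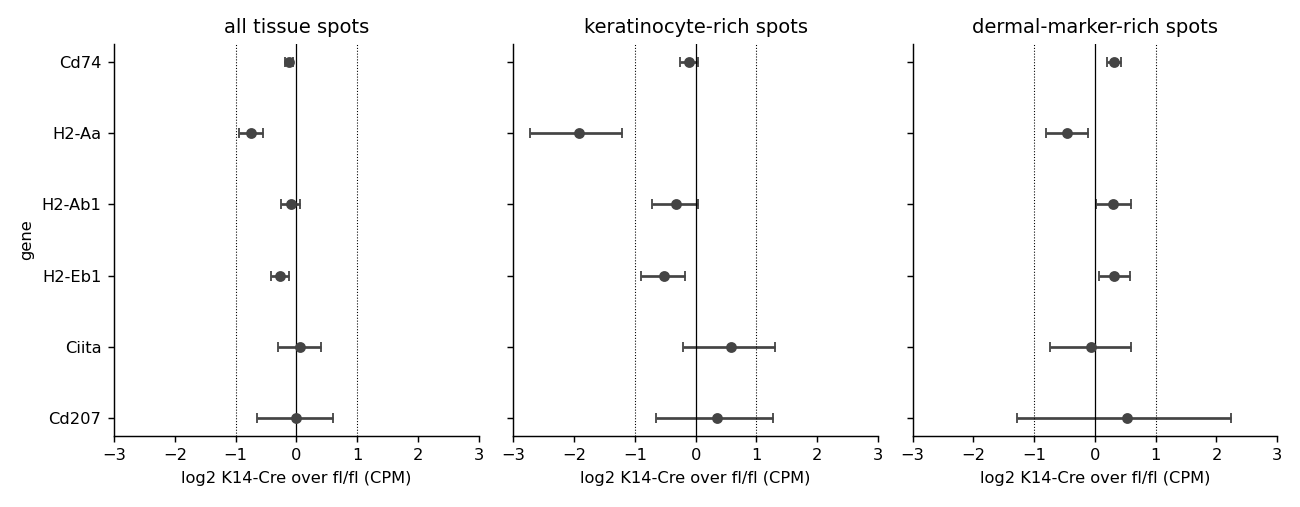
Log2 ratio of K14-Cre over fl/fl CPM (horizontal axis) for each of the 6 genes (vertical axis), in all tissue spots, keratinocyte-rich spots and dermal-marker-rich spots; points are ratios of summed UMIs, bars are exact conditional binomial 95% intervals for counting error, and dotted lines mark 2-fold. H2-Aa lies left of 0 in all 3 panels and past the 2-fold line in keratinocyte-rich spots.

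The values varied along each section, which was cut into 4 segments of equal width. H2-Aa ranged from 128 to 201 CPM over the fl/fl segments and from 58.7 to 159 CPM over the K14-Cre segments. Of the 16 pairs of an fl/fl and a K14-Cre segment, H2-Aa was lower in K14-Cre in 15, in 16 within keratinocyte-rich spots and in 12 within dermal-marker-rich spots. In keratinocyte-rich spots the fl/fl segments held 80.6 to 173 CPM of H2-Aa, and the K14-Cre segments 4, 2, 0 and 11 UMIs, at most 48.0 CPM. The segment without a UMI had 57287 UMIs in all, where the Poisson interval reaches 64.4 CPM. The class II sum ranged from 1520 to 1684 CPM in fl/fl and from 983 to 1709 CPM in K14-Cre and was lower in K14-Cre in 12 of 16 pairs (15 in keratinocyte-rich and 7 in dermal-marker-rich spots), so its small difference lay within the variation along the K14-Cre section. Segments share a section and are not replicates.

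The gap in H2-Aa was also seen against the other class II chains in the same spots, a ratio that no library scaling changes. H2 genes vary in sequence between mouse strains, and whether both animals carried the same H2 alleles and the probes read them alike was not tested. Per H2-Ab1 UMI there were 0.861 H2-Aa UMIs in fl/fl and 0.544 in K14-Cre (log2 difference -0.66, -0.92 to -0.41). Per H2-Eb1 UMI the values were 0.705 and 0.503 (-0.49, -0.74 to -0.24), and per Cd74 UMI 0.166 and 0.107 (-0.63, -0.85 to -0.43). The 3 intervals lay below 0. Per H2-Ab1 the difference was -1.60 (-2.48 to -0.78) in keratinocyte-rich, -0.76 (-1.21 to -0.31) in dermal-marker-rich, -0.85 (-1.56 to -0.15) in fat-marker-rich and -0.27 (-0.89 to 0.34) in muscle-marker-rich spots. By depth it was -1.48 (-2.29 to -0.70) in the outermost 2 spots, -0.82, -0.80 and -0.67 in the next 3 pairs of layers, and 0.10 (-0.50 to 0.70) from the ninth layer down. Per H2-Eb1 the difference by depth was -1.19, -0.55 (-1.15 to 0.03), -0.89, -0.29 (-0.84 to 0.26) and 0.15 (-0.43 to 0.72), so how far down the gap was detectable depended on the partner chain.

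**Figure D3:**
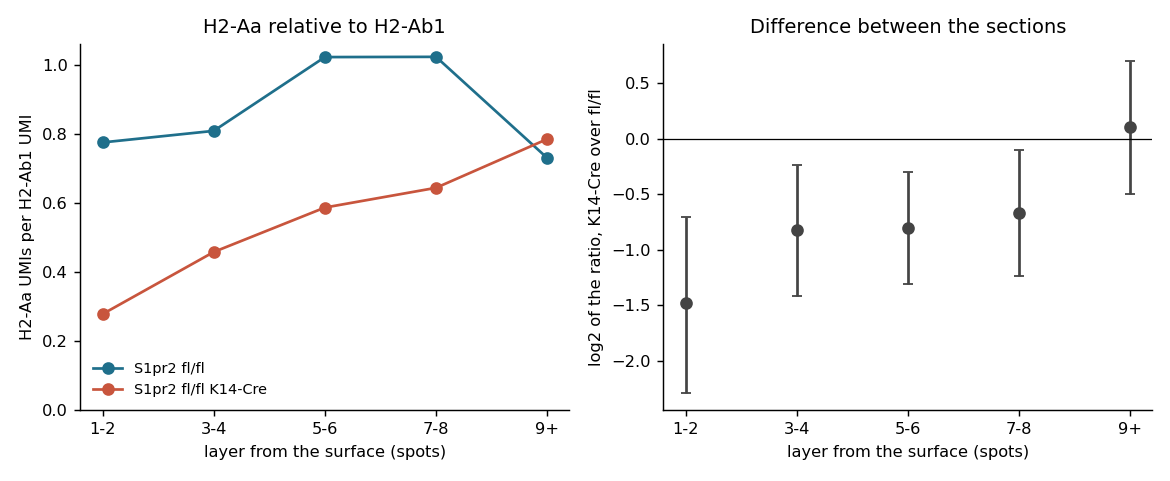
Left, H2-Aa UMIs per H2-Ab1 UMI (vertical axis) by layer of spots from the skin surface (horizontal axis) in the fl/fl (blue) and K14-Cre (red) sections; right, the log2 of K14-Cre over fl/fl of that ratio with 95% counting intervals. In K14-Cre the ratio goes from 0.278 in layers 1 to 2 to 0.786 in layers 9 and deeper, and in fl/fl from 0.776 to 0.731.

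Within each section, class II was higher in dermal-marker-rich than in keratinocyte-rich spots, and the pooled Cd207 count ran the other way. The log2 ratio of keratinocyte-rich over dermal-marker-rich spots for the class II sum was -0.43 (-0.50 to -0.35) in fl/fl and -0.95 (-1.09 to -0.82) in K14-Cre. Over all genes the median was -0.34 in fl/fl, with 67.7% of 12301 genes below 0, and -0.22 in K14-Cre, with 58.9% of 10399. The fl/fl value of the sum thus lay near that of the typical gene. In both sections the sum was higher on the dermal side in 4 of 4 segments. For Cd74 the ratio was -0.37 (-0.47 to -0.27) and -0.79 (-0.96 to -0.63). For H2-Ab1 it was -0.42 and -1.05, for H2-Eb1 -0.39 and -1.23, and for H2-Aa -0.85 (-1.10 to -0.61) and -2.32 (-3.15 to -1.56). All 4 class II chains thus had the wider gap in K14-Cre, and the difference of the class II sum's log2 ratios was -0.53 (-0.68 to -0.37). That difference turned to 0.39 when position stood in for the marker lists (layers 1 to 2 over layers 3 to 6), so it depended on how epidermis was defined. For Ciita the ratio was -0.92 (-1.45 to -0.39) and -0.27 (-1.15 to 0.58). The regions were not equally mixed in the 2 sections. The keratinocyte list stood at 87340 CPM in keratinocyte-rich and 24619 in dermal-marker-rich spots in fl/fl, and at 60740 and 8720 in K14-Cre. The part of this mixing in the wider K14-Cre gap was not tested.

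Cd207 was 2.87-fold higher in keratinocyte-rich than in dermal-marker-rich spots in fl/fl (47 and 8 UMIs, log2 1.52, 0.42 to 2.81) and 2.56-fold in K14-Cre (13 and 6 UMIs, 1.36, -0.14 to 3.04). The K14-Cre interval spanned 0. By segment, Cd207 was the higher on the dermal side in 2 of 4 fl/fl segments (8.81 against 5.03 CPM and 14.3 against 12.9 CPM, on 1 to 6 UMIs each) and in none of 4 in K14-Cre. With spots required to reach 2-fold enrichment of their list, the fl/fl value was 0.21 (-1.06 to 1.76). In fl/fl Cd207 was the 1 member of 6 past 2-fold higher and none was 2-fold lower, where 5.57% of 12301 genes were higher and 24.1% lower. In K14-Cre H2-Aa, H2-Ab1 and H2-Eb1, 3 of the 5 members tested, were past 2-fold lower and none was higher, where 22.8% of 10399 genes were lower and 11.0% higher. The members' median log2 ratio was -0.40 in fl/fl and -1.05 in K14-Cre, against -0.34 and -0.22 over all genes.

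**Figure D4:**
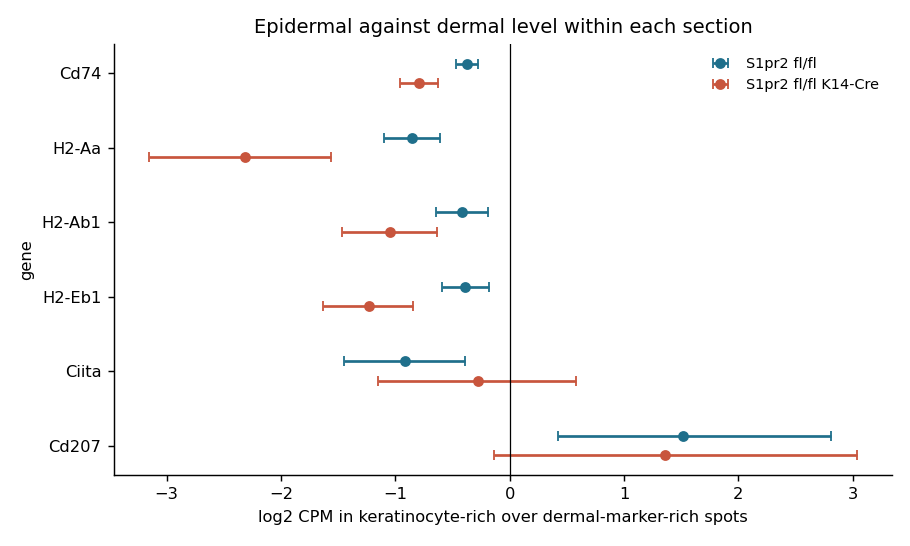
Log2 of CPM in keratinocyte-rich over CPM in dermal-marker-rich spots (horizontal axis) for each gene (vertical axis) in the fl/fl (blue) and K14-Cre (red) sections, with 95% counting intervals. The 4 class II chains lie left of 0 in both sections and further left in K14-Cre, whereas Cd207 lies right of 0.

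Depth was measured by position alone, counting spots (100 µm apart) down from the uppermost tissue spot of each pair of array columns. In fl/fl the class II sum was lowest at the surface: 1118 CPM in layers 1 to 2, 1721 in layers 3 to 4, 1850 in layers 5 to 6, 1618 in layers 7 to 8 and 1538 from layer 9 down. In K14-Cre it was 1319, 1534, 1674, 1510 and 840 CPM. The receptor genes had 1147, 2672, 3591, 2924 and 3035 CPM in fl/fl, also lowest at the surface and highest in layers 5 to 6. In K14-Cre they had 10080, 10256, 5694, 5172 and 5638 CPM. The part of layer makeup in these profiles was not tested. The class II sum peaked in layers 5 to 6 in both sections, where the keratinocyte list stood at 38811 CPM in fl/fl and 4345 in K14-Cre. Its largest difference between the sections was in the deepest layers (log2 -0.87, -1.02 to -0.73), where the K14-Cre section held 116260 CPM of the muscle list and the fl/fl section 36278. In layers 1 to 2 the sum was the higher in K14-Cre (0.24, 0.10 to 0.38), a value that TMM scaling would lower by 0.37 to below 0. These layers also differed in tissue: the keratinocyte list stood at 114380 CPM in fl/fl and 59997 in K14-Cre, the dermal fibroblast list (9 genes) at 2544 and 6270, and the macrophage list at 343 and 680, and their part in the class II values was not tested. Cd74 had 699, 1138, 1162, 963 and 948 CPM in fl/fl, highest in layers 5 to 6, and 926, 1094, 1048, 1006 and 467 in K14-Cre, highest in layers 3 to 4.

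H2-Aa went from 107 CPM in layers 1 to 2 through 160 to 226 in layers 5 to 6 and stood at 197 and 142 below that in fl/fl. In K14-Cre the values were 47.5, 83.9, 134, 120 and 96.3 CPM. H2-Aa was therefore lower in K14-Cre at every depth (log2 -1.18, -0.93, -0.76, -0.71 and -0.56 from the surface down). H2-Ab1 ranged from 138 to 221 CPM over the layers in fl/fl and from 123 to 228 in K14-Cre, and H2-Eb1 from 173 to 265 and from 154 to 264. Both were near equal between the sections in layers 5 to 6 before TMM scaling (log2 0.05, -0.27 to 0.36, and 0.13, -0.17 to 0.43). H2-Eb1 was lower in K14-Cre in layers 3 to 4 (-0.38, -0.73 to -0.04) and 7 to 8 (-0.43, -0.77 to -0.09). From layer 9 down both were lower (H2-Ab1 -0.67, -1.07 to -0.29, and H2-Eb1 -0.72, -1.07 to -0.38). Their other layer intervals spanned 0.

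Ciita was low throughout, and its depth profile differed between the sections at the surface. In fl/fl it had 11.1 CPM in layers 1 to 2 and 33.4, 37.7, 44.6 and 41.8 CPM below, and in K14-Cre 39.9, 42.8, 24.8, 37.7 and 36.8 CPM. The difference in layers 1 to 2 rested on 10 UMIs in fl/fl and 21 in K14-Cre (log2 1.85, 0.70 to 3.10). The receptor genes in these layers stood at 1147 and 10080 CPM in sum, so background was also higher in the K14-Cre surface layers, and its part in the Ciita value was not tested. Over whole sections Ciita stood at percentile 99.9 of the 1226 receptor genes in fl/fl and at 99.8 in K14-Cre (ties counted at their midpoint).

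The Cd207 count was highest near the surface in both sections, but background was also higher there in K14-Cre. In fl/fl it had 21, 18, 11, 7 and 7 UMIs from the outermost layers down, which is 23.2, 15.4, 11.5, 8.21 and 4.96 CPM, and in K14-Cre 12, 9, 3, 7 and 3 UMIs, or 22.8, 15.4, 4.96, 12.6 and 5.25 CPM. Layers 1 to 2 over layers 9 and deeper gave a log2 ratio of 2.23 (0.94 to 3.71) in fl/fl and 2.12 (0.23 to 4.58) in K14-Cre. Cd207 UMIs lay in layers 1 to 4 in 60.9% of cases in fl/fl and 61.8% in K14-Cre, against 36.2% and 40.5% of the class II UMIs and 39.2% and 39.1% of all UMIs. The macrophage list had 14.2% and 22.9% of its UMIs there. Against background the sections differed. In fl/fl the receptor genes had 1036 and 3122 of their 14430 UMIs in layers 1 to 2 and 3 to 4, and no receptor gene had as many UMIs as Cd207 in layers 1 to 2. In K14-Cre they had 5310 and 5992 of 20861, and stood at 10080 CPM in layers 1 to 2 and 5638 from layer 9 down. There 56 receptor genes had at least as many UMIs as Cd207 in layers 1 to 2, and Cd207 stood at percentiles 96.1, 85.3, 63.8, 94.8 and 65.8 from the surface down, so its depth profile in K14-Cre was not separable from that of background.

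**Figure D5:**
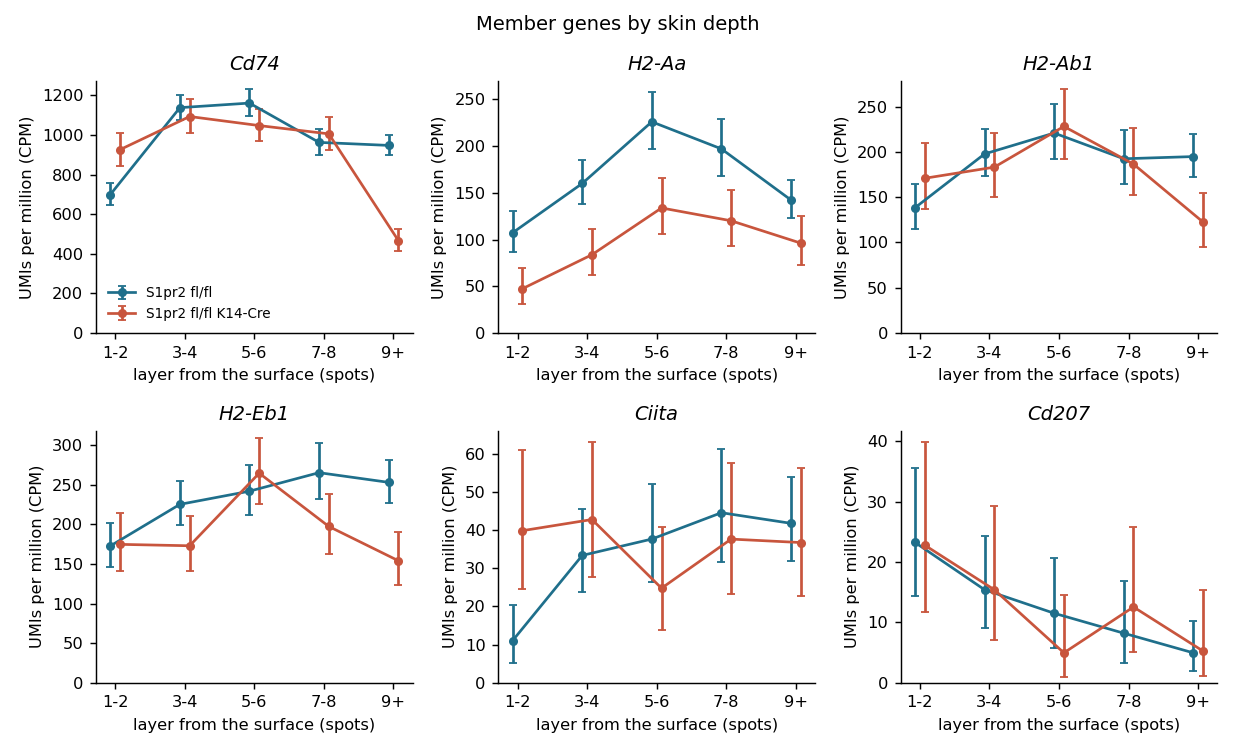
CPM (vertical axes, starting at 0) of each gene by layer of spots from the skin surface (horizontal axes) in the fl/fl (blue) and K14-Cre (red) sections; bars are exact Poisson 95% intervals for counting error. H2-Aa is lower in K14-Cre in every layer, Cd74 drops to 467 CPM in the deepest K14-Cre layers, and Cd207 is highest in layers 1 to 2 in both sections.

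The Cd207 signal was sparse. It came from 43 spots in fl/fl (3.35%) and 26 in K14-Cre (2.65%), with 1 UMI in 30 and 18 of them and at most 5 and 2. After thinning to 1000 UMIs the shares were 0.920% and 1.03%. Against the receptor genes, 3 of 1226 had at least as many UMIs as Cd207 in the fl/fl section, and Cd207 stood at their percentile 94.9 in K14-Cre, and at percentiles 99.9 and 97.7 in keratinocyte-rich spots. In dermal-marker-rich spots 100 receptor genes had at least as many UMIs in fl/fl and Cd207 stood at percentile 73.6 in K14-Cre, so the dermal Cd207 counts were not separable from background. Of the Cd207-positive spots, 29 of 43 and 9 of 26 were keratinocyte-rich, and 41 and 20 also held a class II UMI. Among all spots, 467 of 1282 and 183 of 981 were keratinocyte-rich, and 78.7% and 71.5% held a class II UMI. The Cd207-positive spots were also deeper, with a median of 7086 UMIs against 3407 in fl/fl and 3088 against 2313 in K14-Cre. Keratinocyte-rich fl/fl spots with a Cd207 UMI had a class II sum of 1755 CPM (1601 to 1920), against 1405 (1355 to 1457) in those without, and a median depth of 8540 against 3918 UMIs. In K14-Cre the values were 882 (614 to 1227) and 1213 (1116 to 1316) over 9 and 174 spots, so the order was the opposite there.

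Other genes of the pathway were counted from lists of named roles. Class II loading and costimulation covers the peptide editor H2-DM, its modulator H2-O, the proteases Ctss and Lgmn, which cut the invariant chain and antigens, and the T cell costimulators. Of its 12 measured genes, 2 were past 2-fold higher in K14-Cre over whole sections (H2-Oa, 27 and 29 UMIs, and H2-Ob, 32 and 38) and none lower, below the 28.4% of all genes that were 2-fold higher, with a median log2 ratio of 0.31 against 0.40 over all genes. Ctss had 1634 and 1342 UMIs (0.62, 0.51 to 0.72) and H2-DMa 264 and 129 (-0.13, -0.45 to 0.18). In fl/fl, 8 of the 9 tested were past 2-fold lower in keratinocyte-rich than dermal-marker-rich spots, against 24.1% of all genes. In K14-Cre 4 of 6 were, against 22.8%. The class II sum differed less in fl/fl (log2 -0.43). Keratinocyte-rich spots held 41.4% of its fl/fl UMIs and dermal-marker-rich spots 27.2%. These spots also held 2398214 and 1170495 of the 5315351 fl/fl UMIs of all genes. Per UMI the sum was therefore the lower in keratinocyte-rich spots (1445 against 1944 CPM). Ctss had log2 ratios of -1.34 (-1.51 to -1.17) and -1.86 (-2.13 to -1.58), and Lgmn -1.37 and -2.27.

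The factors that bind class II promoters (6 measured) had a median log2 ratio of -0.73 over whole sections, and 1 was past 2-fold lower. This was Rfx5, the subunit that binds the X box, with 59 UMIs in fl/fl and 7 in K14-Cre (-2.17, -3.55 to -1.04). In keratinocyte-rich spots its partner Rfxap was past 2-fold higher (70 and 33 UMIs, 1.13, 0.48 to 1.74), and Nfyb was past 2-fold lower (50 and 4 UMIs, -1.43, -3.36 to 0.01). The interferon gamma list (7 genes) had 1 gene past 2-fold higher over whole sections, the cytokine Ifng itself, with 8 and 20 UMIs (2.22, 0.98 to 3.62), and none lower. Its receptor chain Ifngr2 had 184 UMIs in fl/fl and 2 in K14-Cre in keratinocyte-rich spots (-4.31, -7.37 to -2.44). In dermal-marker-rich spots Ifngr2, the kinase Jak1 and the transcription factor Irf1 were past 2-fold lower (-1.09, -1.03 and -1.03). Several of these counts were near background, where a receptor gene had a mean of 11.8 UMIs in fl/fl and 17.0 in K14-Cre. Ifng in both sections and Rfx5 in K14-Cre lay near or below that mean. So did Ifngr2 and Nfyb in the keratinocyte-rich K14-Cre spots, where the mean was 4.14. H2-Oa and H2-Ob lay above the mean in both sections but inside the range of receptor genes, which reached 202 and 225 UMIs. The transcription and interferon gamma lists each had a median below that of all genes in all 3 sets of spots.

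MHC class I presentation (9 genes), which nearly all nucleated cells carry out, had no gene past 2-fold over whole sections or in keratinocyte-rich spots, and a median of 0.10 over whole sections. Its heavy chain H2-K1 had 1719 and 479 UMIs (-0.94, -1.09 to -0.80) over whole sections and was past 2-fold lower in dermal-marker-rich spots (512 and 112 UMIs, -1.26, -1.57 to -0.96), whereas H2-D1 (4311 and 2475 UMIs) differed by 0.10 and the light chain B2m (7357 and 3395 UMIs) by -0.21. H2-K1 thus had a lower ratio than B2m, as H2-Aa had than H2-Ab1, and for both genes a difference in expression and a difference in how the probes read the alleles cannot be told apart here.

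Among 11 genes of Langerhans cell biology, Cd24a and Il34 were past 2-fold lower in K14-Cre over whole sections and Ccl20 was past 2-fold higher, against 4.50% and 28.4% of all genes. Il34, the keratinocyte cytokine on which Langerhans cells depend, had 115 and 14 UMIs (-2.14, -3.05 to -1.33), and Cd24a, a surface protein of Langerhans cells and of keratinocytes, 1112 and 154 (-1.95, -2.20 to -1.71). In keratinocyte-rich spots Cd24a had 696 and 35 UMIs (-2.10, -2.64 to -1.61). Il34 had 60 and 3 there (-2.11, -4.43 to -0.49), and its K14-Cre count was below the receptor mean of 4.14 UMIs per gene. Its 14 UMIs over the whole K14-Cre section were also below the receptor mean of 17.0. The keratinocyte list itself went from 53651 CPM in fl/fl to 18284 in K14-Cre over whole sections. In keratinocyte-rich spots its gene Krt10 had 14118 and 3649 CPM, whereas Krt14 had 24840 and 24964. The part of keratinocyte content and state in the Cd24a and Il34 values was not tested. Ccr6 was past 2-fold higher in these spots (34 and 23 UMIs, 1.65, 0.82 to 2.45), where 20.7% of all genes were. Ccl20, the chemokine that attracts cells with Ccr6, had 38 and 42 UMIs (1.05, 0.38 to 1.72). Epcam, which Langerhans cells and hair follicle keratinocytes carry, had 1723 and 774 UMIs (-0.25, -0.38 to -0.13). It was higher in keratinocyte-rich than dermal-marker-rich spots in both sections (log2 1.16, 0.96 to 1.36, and 1.19, 0.89 to 1.49), whereas the K14-Cre interval of Cd207 spanned 0.

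The genes whose spot-to-spot pattern was most like the class II sum were ranked by the lower of the 2 sections' Pearson r, over 1096 fl/fl and 947 K14-Cre spots and 2784 genes. The first 10 were Tmsb4x (lower r 0.313), Col3a1 (0.292), Col1a2 (0.279), Ctsk (0.264), Tnc (0.257), Rarres2 (0.254), Ctss (0.240), Col1a1 (0.235), Saa3 (0.232) and Actb (0.230). Col1a1, Col1a2 and Col3a1 are collagens of the dermis and were among the markers that defined dermal-marker-rich spots. The median lower r over all ranked genes was 0.036 and the 99th percentile 0.186. These correlations were weak, spots of a section share a library and differ in depth, and the class II sum itself correlated with the total UMIs of a spot (r 0.283 in fl/fl and 0.212 in K14-Cre).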

How the data were processed

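The values the authors deposited are unnormalized UMI counts, 1 matrix per section over the spots on tissue, with spot positions. The file header names Space Ranger 3.0.0, and the submitters' processing notes name mm10; the probe set was not given in the sources used here. Members, lists and motifs were chosen with earlier results of these data known. Counts were summed over spots and divided by all UMIs of the same spots (CPM). Intervals are exact Poisson for levels, Clopper-Pearson for shares of spots and conditional binomial for ratios, in Python 3.11.15 with scipy 1.17.1, and UMIs that derive from 1 cell are not independent. A gene was counted as past 2-fold if it had at least 20 UMIs over both sides. Spots under 50 UMIs, or with no list above its mean, were put in no region. Layers covered the connected tissue (1203 fl/fl and 970 K14-Cre spots). Named genes were the 6 members, genes of the lists past 2-fold with at least 100 UMIs and those behind a count, with a few partner chains added after their values were seen, and the 10 most alike in pattern. TMM factors were from edgeR 4.0.16 in R 4.3.3, used for scaling only. The ratio code was tested on simulated data. Alternatives to scaling, spots, regions and depth are given under the closing section. Those with the receptor mean taken off, spots of at least 500 UMIs or connected tissue alone enter only its counts and the H2-Aa statement.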

Additional observations from a re-analysis of the deposited data

How the results depend on the processing

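No paired analysis was possible because each genotype had 1 section. All values are log2 ratios unless a unit is given. The class II sum over whole sections (-0.19) became -0.56 with TMM scaling, -0.28 as a mean over spots and -0.27 without the 10 richest spots of each section. In keratinocyte-rich spots (-0.28) it became -0.65 with TMM scaling, and in dermal-marker-rich spots (0.24) -0.13 with TMM scaling and 0.12 without the 10 richest spots. With TMM scaling the dermal values of Cd74, H2-Ab1 and H2-Eb1 also reversed, to -0.056, -0.068 and -0.055, because the factors lower every ratio alike. The factors came from whole sections. Before this scaling the median over all genes was 0.14 in keratinocyte-rich and 0.02 in dermal-marker-rich spots. The epidermal over dermal ratio of the sum in fl/fl (-0.43) became -0.53 with at least 2-fold enriched spots, -1.04 with Leiden clusters and -0.67 with layers 1 to 2 over 3 to 6. In K14-Cre (-0.95) it became -1.69, -1.48 and -0.28. The difference of these ratios between sections (-0.53) became -1.17 with 2-fold enriched spots and reversed to 0.39 with layers, as did those of Cd74 (to 0.51), H2-Ab1 (to 0.32) and H2-Eb1 (to 0.10), and the cause was not tested. Layers 1 to 2 over deeper layers (-0.58 in fl/fl, -0.08 in K14-Cre) became -0.23 in K14-Cre in unbroken columns. Keratinocyte-rich spots over all other connected tissue gave -0.22 in fl/fl and -0.26 in K14-Cre, a split by marker list and not by depth. Thinning lowered the shares of spots with a class II UMI to 69.5% and 58.9%. Leaving out the 10 richest spots and leaving out the hair follicle list, whose genes lay near the receptor level, were chosen after seeing the data. H2-Aa kept its lower value in K14-Cre under all alternatives run, over whole sections and in keratinocyte-rich and dermal-marker-rich spots. Of the values answering a comparison, 33 stayed within the counting interval of the reported value, 17 moved outside it and 2 reversed; of the single-gene values 236, 58 and 6. Depth limits Cd207 and Ciita most, whose counts per layer fell to 3 and 10 UMIs.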
